A study of Mus musculus with 5 samples.

Results

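The MHC class II-high nuclei were 70 of the 9505 nuclei kept from 5 single-nucleus RNA-seq libraries, which held 9748 deposited nuclei. A nucleus was a member if it held at least 5 unique molecular identifiers (UMIs, counted RNA molecules) summed over Cd74, H2-Aa, H2-Ab1 and H2-Eb1. It also held at most 1 UMI of the macrophage genes Mrc1 and F13a1, at most 3 of the microglial genes P2ry12, Siglech, Gpr34 and Sall1, and at most 1 of the T cell genes Skap1, Themis, Cd3g and Cd3e. These 14 genes chose the nuclei, so their levels are given as description. They stayed among the genes fitted below, and no result is drawn from their values. The working label was myeloid, and the markers bore this out for some of the nuclei and not for others, as described below.

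Each library came from 1 mouse, 2 labelled R241E and 3 labelled WT. In the R241E mice, Cre recombinase fused to the modified oestrogen receptor ERT2 and driven by the Tmem119 locus was activated by tamoxifen to switch on Cgas R241E, an allele whose cGAS protein senses DNA without being held back by nucleosomes, and 1 copy of the allele was carried. The sample titles give wt/wt for the controls, which carried the same Cre, while the study also names controls that carried the allele, so the groups are called by their genotype labels here. Tamoxifen was given to young adult mice, and the labels give no age or sex. The samples were labelled as hippocampus and as microglia, and DAPI-positive nuclei without NeuN (neurons) or Olig2 (oligodendrocyte lineage) had been sorted before 10x 3′ library preparation. The labels also carry a text on the STING inhibitor H151 and its vehicle, DMSO, which no label assigns to a mouse. By the study's account this Cre recombines mostly in microglia and in macrophages of the brain, so recombination is not known for the dendritic and B cell marker groups described below, and the transcripts do not show which nuclei carried the recombined allele. The mice are the replicates throughout.

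MHC class II molecules are pairs of an alpha and a beta chain that carry peptides of engulfed proteins to the cell surface for CD4 T cells. The invariant chain Cd74 occupies the groove during transport, the cysteine protease Ctss trims it, and H2-DM exchanges its remnant for peptide, while H2-O restrains H2-DM. Ciita is the coactivator that turns the genes on together from a promoter module of S, X and Y boxes. In healthy brain most class II protein is found in dendritic cells, macrophages and B cells of the borders and vessels, and resting microglia hold little.

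The Y box is the part of that module with a fixed core, ATTGG, and is shown here because 5 of the pathway genes had it at a like distance from their start in the RefSeq promoters of build GRCm38.p6. Each line gives 30 bases on the gene's strand, 5′ to 3′, with the core in capitals.
H2-Aa: gagaattttctgATTGGttctggcgagttt
H2-Eb1: cctttgatgctgATTGGctcccagcactgg
H2-DMb1: attcactcagtgATTGGtctgacctgccta
H2-Oa: agaactgctctgATTGGctgcttaccgcaa
H2-Ob: tcttcgctcttgATTGGttaacagtgtgaa
The H2-Aa stretch lies at chr17:34287854-34287883 on the minus strand and its core begins 48 bases before the start. The plus-strand stretches lie at chr17:34305796-34305825 for H2-Eb1, chr17:34153118-34153147 for H2-DMb1, chr17:34092324-34092353 for H2-Oa and chr17:34238836-34238865 for H2-Ob, with the core 59, 61, 43 and 57 bases before the start. ATTGG on either strand occurred in 24.5% of 32851 promoters searched over the 150 bases before the start, so its presence alone is common. The core was looked for because it is known in class II promoters. A match is a description of letters and not a bound site. H2-DMa did not hold these letters in its window, and H2-Ab1 and Cd74 are named without a promoter.

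The libraries held 4183709 to 10130667 UMIs, and the median kept nucleus held 2125.5 to 3364. No barcode of a member occurred in another library, although 13 barcodes were found in more than 1 library among the deposited nuclei. A doublet score marked 156 kept nuclei, of which 1 was a member, a nucleus of R241E mouse 1 in the Slc47a1 group described below. Class II UMIs were also found in nuclei that should lack them, and whether they came from free RNA or from doublets was not tested. In neuron-list nuclei, defined by at least 5 UMIs of neuronal genes and a median of 3586 to 5368 UMIs, 10.9% and 3.91% held any class II UMI in R241E mice 1 and 2 and 3.60%, 1.68% and 2.47% in WT mice 1 to 3. The highest such nucleus held 14, and the highest among nuclei with at least 5 UMIs of oligodendrocyte genes held 19. The 5-UMI limit therefore lay above most of this background and not above all of it, and members with 5 to 19 class II UMIs are within its range. Among nuclei that passed the other limits, 11 held 3 class II UMIs, 8 held 4, 8 held 5 and 5 held 6.

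The 70 members held 5 to 507 class II UMIs. All 4 genes were detected in 43 members, 3 in 11, 2 in 10 and 1 in 6. Cd74 was present in all 70 with 2939 UMIs, H2-Aa in 58 with 904, H2-Eb1 in 55 with 673 and H2-Ab1 in 48 with 670. The structural genes map to chr17:34282744-34287823 (H2-Aa), chr17:34305867-34316674 (H2-Eb1) and chr17:34263227-34269418 (H2-Ab1). Summed over the 4 genes, members held 218 and 240 class II UMIs per 10000 UMIs in R241E mice 1 and 2 and 230, 496 and 226 in WT mice 1 to 3. WT mouse 2 stood highest and the other libraries lay close together.

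The myeloid label was checked against the given markers and against marker lists for the cells that could pass the rule. Ccr2, the chemokine receptor of blood-derived monocytes, was detected in 18 of 70 members (110 UMIs), and Lyz2, the myeloid lysozyme, in 19 (281 UMIs). Each nucleus was placed with the list of which it held the most UMIs, provided there were at least 5 and more than of any other list, a grouping made after the data had been seen. By this, 16 nuclei went to the dendritic list, 7 to the monocyte list, 3 to the monocyte-derived macrophage list, 19 to the B cell list and 8 to the microglial list. A further 10 went to a list of vascular and meningeal fibroblast genes, in which the transporter Slc47a1 gave 173 of 209 UMIs, and 7 went to none. Genes of these lists placed the nuclei. Their concentration in a group, given below for single list genes, is therefore description and no support for the group's name. No nucleus went to the plasmacytoid dendritic list, 0 of 70, which allows a share of up to 4.29% for counting error alone, with nuclei of all mice pooled. In marker classes taken at 2 or more UMIs, without the microglial and fibroblast lists, 3 nuclei went to it. By the grouping used here these went to the fibroblast list. The 3 myeloid lists other than microglia thus took 26 nuclei, and B cell markers led in 19, so the set is called MHC class II-high nuclei and not myeloid nuclei here. A list of 12 T and NK cell genes gave 1 UMI over all members, the 4 T cell genes of the rule gave 2, and mast cell genes gave none.

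**Figure D1:**
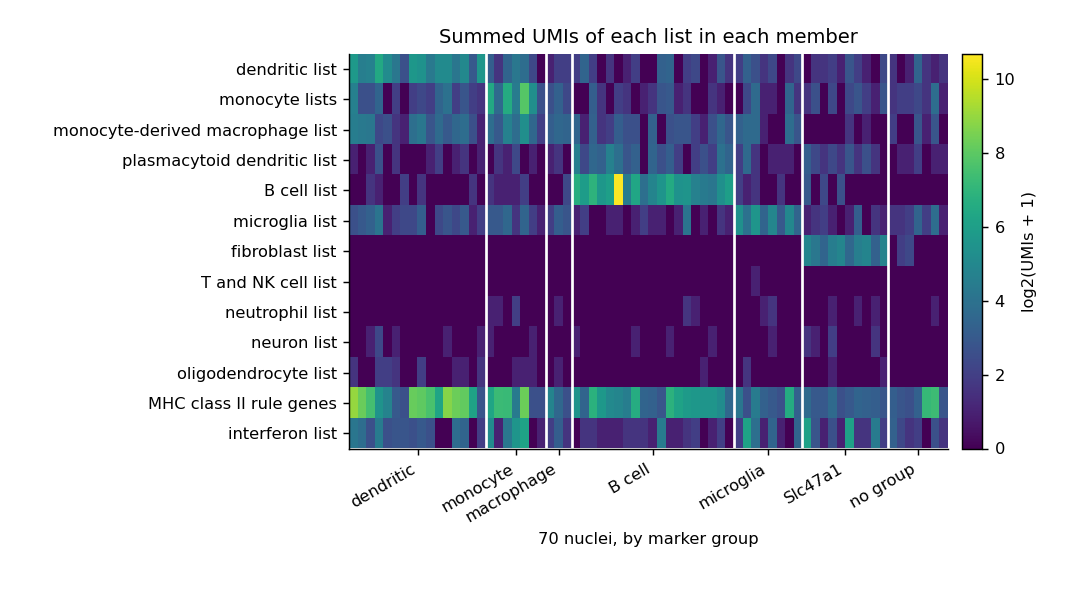
Each column is 1 of the 70 members, ordered by marker group, and each row a marker list, with colour giving log2(UMIs + 1) summed over the list. The dendritic, B cell, microglial and fibroblast (Slc47a1) rows are bright over their own group by construction, while the T and NK cell row is almost empty and the class II row is brightest over dendritic nuclei.

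The dendritic group of 16 nuclei had the highest class II counts of the groups, with a median of 188 UMIs (range 5 to 507), or 739 per 10000. Flt3, the growth factor receptor of the dendritic lineage, was detected in 10 members, 9 of them in this group, and the transcription factor gene Zbtb46 in 11, 9 of them here. Genes of both types of conventional dendritic cell were present, and over all members the type 2 list of 11 genes gave 250 UMIs and the type 1 list of 10 genes gave 188. Of the type 2 list, Cd209a, a lectin, gave 28 UMIs in 9 nuclei, Clec10a, another lectin, gave 45 in 7 and Klrd1 gave 33 in 11, and none of these was found in another group. Mgl2 gave 39 UMIs and S100a4, a calcium-binding protein of migrating cells, gave 60 over all members. Of the type 1 list, Wdfy4, which is needed for cross-presentation and is also made by B cells, gave 97 UMIs in 26 members. Cadm1, an adhesion molecule, gave 19 in 8, of which 13 were in the dendritic group, the receptor for dead cells Clec9a gave 16 in 5 and the chemokine receptor Xcr1 gave 2 UMIs in 1 nucleus. Batf3, a transcription factor gene of the lineage, gave 18 UMIs in 12 members, and the dendritic group held 11 of these UMIs in 7 nuclei. The migration receptor Ccr7 gave 5 UMIs in 3 members. The group held 7 and 2 nuclei in R241E mice 1 and 2 and 2, 4 and 1 in WT mice 1 to 3, so the genotypes overlapped.

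The monocyte group of 7 nuclei held a median of 76 class II UMIs (range 5 to 313). Ly6c2, a surface protein of classical monocytes, gave 71 UMIs over all members, but 63 of these came from 1 nucleus of WT mouse 2, which also held 104 of the 281 Lyz2 UMIs and 29 of the 110 of Ccr2. Genes of the patrolling, non-classical monocyte were present at low level, with Ace at 16 UMIs in 4 members, Ear2 at 11 in 7 and Treml4 at 7 in 5. The 3 nuclei of the macrophage group held 5, 11 and 27 class II UMIs. These groups held 1 and 2 nuclei in the R241E mice and 2, 4 and 1 in the WT mice.

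The B cell group of 19 nuclei was the largest and held a median of 45 class II UMIs (range 6 to 116), or 237 per 10000. Cd79a and Cd79b, the signalling chains of the B cell receptor, gave 87 UMIs in 16 members and 73 in 19, and Cd79a was found in no other group. Ms4a1, which encodes CD20, gave 35 UMIs in 11, the lineage factor Pax5 gave 21 in 11 and Ebf1 gave 145 in 21. Immunoglobulin transcripts were uneven. Igkc gave 1624 UMIs in 17 nuclei, of which 1327 lay in 1 nucleus of R241E mouse 2, and this nucleus also held 301 of the 470 Ighm UMIs and the 165 UMIs of Jchain, the joining chain of secreted antibody. The group held 2 and 5 nuclei in R241E mice and 0, 4 and 8 in WT mice. In WT mouse 1 the count of 0 of 6 members allows a share of up to 50%.

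The microglial group of 8 nuclei held a median of 9 class II UMIs (range 5 to 93). C1qa, a complement subunit made by microglia, was detected in all 8, and so was Inpp5d, an inositol phosphatase gene. These nuclei entered because the 4 microglial genes of the rule were low in them. They were found in R241E mice 1 and 2 (2 and 4 nuclei) and WT mouse 3 (2).

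The 10 nuclei of the Slc47a1 group held 5 to 12 class II UMIs, a median of 7.5, at the highest median depth of the groups (4894 UMIs). Slc47a1, an organic cation exporter, gave 173 UMIs in 12 members, and Col1a2, a collagen chain, gave 26 of its 27 member UMIs in 9 of the 10 nuclei. The other fibroblast list genes gave few or no UMIs, with Col1a1 at 4, Pdgfra at 4, Dcn at 1 and Lama1 at 0 over all members. The group is called by its leading gene and given no cell type. Mgp, a matrix protein, gave 536 of its 620 member UMIs in these 10 nuclei, and Foxp2, a transcription factor gene, gave 106. Of 213 kept nuclei with at least 5 Slc47a1 UMIs, 21.6% held any class II UMI and 10 (4.69%) held at least 5. By library, any class II UMI was found in 19.8% and 23.1% of 101 and 52 such Slc47a1 nuclei in R241E mice 1 and 2. In WT mice 1 to 3 it was found in 11.1%, 29.4% and 23.5% of 9, 17 and 34. In WT mouse 1 this was 1 nucleus, which was itself the member. These shares include members, whereas the neuron-list shares leave members out, so they are not set against each other. The members' counts of 5 to 12 lie below the highest neuron-list nucleus.

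**Figure D2:**
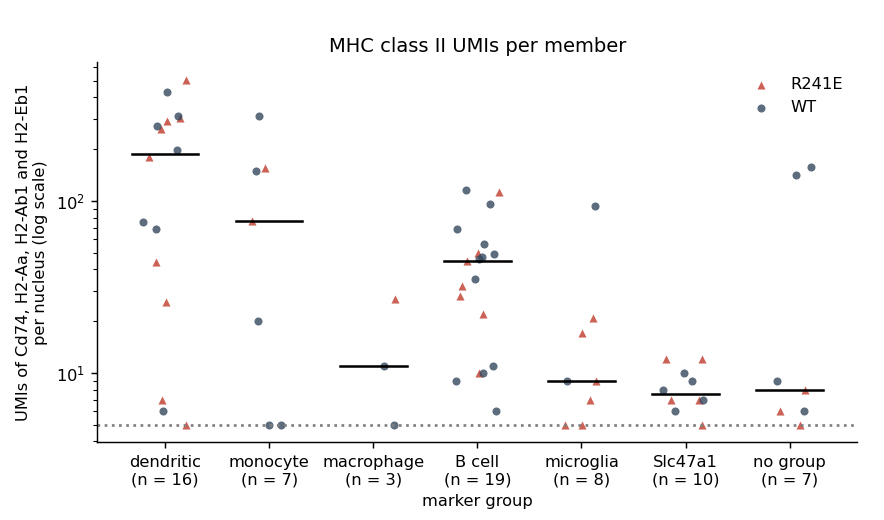
Summed class II UMIs (log axis) are plotted for each of the 70 members by marker group, with colour giving genotype. Dendritic nuclei reach 507 UMIs and B cell nuclei 116, while the Slc47a1 group stays between 5 and 12.

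Marker groups also differed in the share of UMIs from ribosomal protein genes, which had medians of 11.6% in dendritic, 9.01% in B cell and 3.93% in monocyte nuclei and 1.19% in microglial nuclei. Its part in the class II levels was not tested. Genes were ranked by their ratio of members to all other kept nuclei if they were outside the rule and held at least 50 member UMIs. They also had to be higher in members in each of the 5 libraries. A gene without UMIs in members of WT mouse 1, such as Cd79a, could not enter. The 20 genes with the highest ratio, given as description, ran from 140-fold for Cd79b to 15.2-fold for Fau. They mixed B cell (Cd79b), monocyte (Ccr2, Lyz2), Slc47a1-group (Mgp, Ecrg4) and antigen-processing genes (H2-DMa, H2-DMb1, Ifi30, Napsa).

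Other genes of the class II pathway were present in most members, with 737 UMIs of 18 genes in 62 of 70 nuclei. Ciita, the coactivator, gave 34 UMIs in 15 nuclei, of which 13 and 4 were in R241E mice 1 and 2 and 6, 7 and 4 in WT mice 1 to 3. H2-DMa and H2-DMb1, which form the peptide exchanger, gave 74 UMIs in 27 nuclei and 75 in 25. H2-Ob, a chain of its inhibitor known from B cells, gave 30 in 21, and its partner H2-Oa gave 18 in 9. Ctss, the invariant chain protease, gave 209 UMIs in 48 nuclei, and the thiol reductase Ifi30 gave 107 in 27. March1, the ubiquitin ligase that removes class II from the surface, gave 94 in 35. The promoter factor Rfx5 was not detected in members at this depth. Summed over the 18 genes, the level was 39.1 and 32.8 UMIs per 10000 in R241E mice 1 and 2 and 46.3, 50.5 and 32.3 in WT mice 1 to 3, and the genotypes overlapped. By group it ran from 5.42 per 10000 in the Slc47a1 group to 65.0 in the dendritic group. The 10 costimulatory genes gave 66 UMIs in 31 nuclei, among them Cd86, a CD28 ligand, with 24 in 13.

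The first comparison between genotypes asked whether such nuclei were more frequent in R241E mice. They numbered 15 of 2403 kept nuclei in R241E mouse 1 (0.624%, exact Clopper-Pearson 95% interval 0.350 to 1.03) and 18 of 1357 in mouse 2 (1.33%, 0.788 to 2.09). In WT mice 1 to 3 they numbered 6 of 1534 (0.391%, 0.144 to 0.849), 14 of 1965 (0.712%, 0.390 to 1.19) and 17 of 2246 (0.757%, 0.442 to 1.21). The intervals cover counting error only. The mean share was 0.975% ± 0.497 (SD, n = 2) in R241E and 0.620% ± 0.200 (SD, n = 3) in WT mice, and R241E mouse 1 lay among the WT mice. The difference of 0.355 percentage points gave p = 0.4 in an exact two-sided permutation test, in which 2 against 3 mice allow no p under 0.1. With nuclei thinned to 1000 UMIs, shallower ones left out and at least 2 class II UMIs required, the shares were 1.35% and 1.92% against 0.535%, 0.782% and 0.715%, and no longer overlapped (exact permutation p = 0.1, the smallest possible). This left out 1, 3, 0, 2 and 6 members of R241E mice 1 and 2 and WT mice 1 to 3, and since the limits on microglial and macrophage UMIs were kept at the lower depth, it chose a different set, of 32, 24, 8, 15 and 15 nuclei.

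A denominator without microglia gave another order. Among nuclei with at most 3 of the microglial rule UMIs, members made up 1.05% and 2.03% in R241E mice and 0.924%, 2.38% and 1.82% in WT mice, which overlapped (exact permutation p = 0.8). The shares thus depend on how many microglia a library held, and sorting and recovery cannot be told apart from cell number. The make-up by marker group overlapped between genotypes for the dendritic and B cell groups. The microglial group, at 13.3% and 22.2% of members in R241E mice and 0%, 0% and 11.8% in WT mice, did not overlap (exact permutation p = 0.2, not adjusted over the groups). In a test of 5 marker classes taken at 2 or more UMIs the smallest p was 0.2 (exact permutation, adjusted p = 1 for each class).

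The rule's limits on microglial and macrophage genes removed more class II-positive nuclei from R241E mouse 1 than from the others. Of 150 kept nuclei with at least 5 class II UMIs, 33 failed on the macrophage genes, 25 on the microglial genes, 21 on both and 1 on the T cell genes. R241E mouse 1 held 59 of the 150 and 14 of the 25 that failed on microglial genes, R241E mouse 2 held 7 of these 25, and the WT mice held 1, 1 and 2. Most class II-positive nuclei with microglial rule genes are therefore outside the set described here, which holds the 8 nuclei of the microglial marker group.

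**Figure D3:**
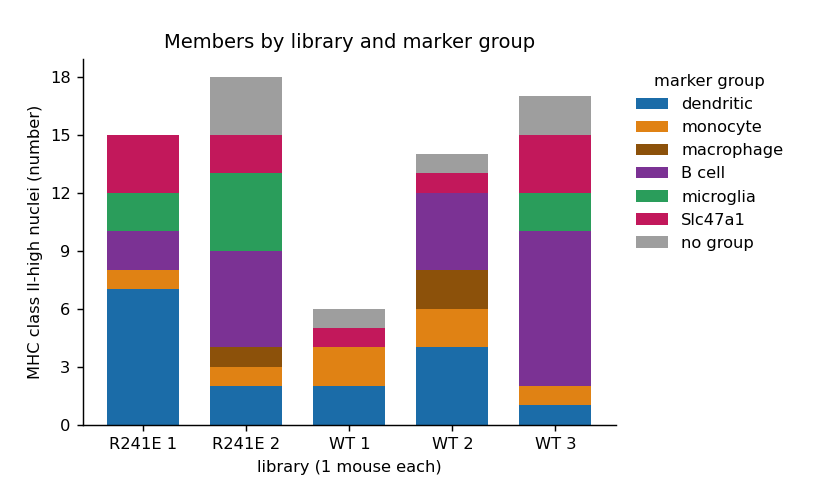
Bars give the number of members in each library, 1 mouse each, divided by marker group. R241E mice 1 and 2 hold 15 and 18 members and WT mice 1 to 3 hold 6, 14 and 17, and each group with over 10 nuclei is found in both genotypes.

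Gene expression was compared between genotypes on UMI counts summed over the members of each mouse. WT mouse 1 was left out of this fit for having fewer than 10 members, so that 2 R241E and 2 WT mice were compared. Of 667 genes tested by edgeR's quasi-likelihood test with Benjamini-Hochberg adjustment, 0 were called at an adjusted p under 0.05 (0% of genes tested) and 20 had an unadjusted p under 0.05. DESeq2 called 2 on the same genes and limma-voom called none. With a mouse left out, so that a lone mouse is assumed to vary like the other genotype, the count was 1 without R241E mouse 1, 5 without R241E mouse 2, 8 without WT mouse 2 and 18 without WT mouse 3. The members of a mouse in this fit summed to 32225 to 57356 UMIs, and the counts of most genes were low.

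No gene could be named by the rule for called genes. The 3 genes with the smallest p, singled out after their values were seen, rested on few nuclei. Iglc1, an immunoglobulin light chain segment, gave 83 and 33 UMIs in R241E mice 1 and 2 and 0, 0 and 3 in WT mice 1 to 3 (log2 difference 4.58 ± 0.90 SE, edgeR adjusted p = 0.445), and the 83 lay in 1 B cell-group nucleus. Gpc5, a glypican gene, gave 77 and 18 against 0, 0 and 3 (4.25 ± 1.02, edgeR adjusted p = 0.819), with 65 UMIs in 1 Slc47a1-group nucleus. This nucleus was the member that the doublet score marked. Gpc5 is also on the marker list of 6 astrocyte genes, and the Slc47a1 group held 115 of the 124 member UMIs of that list. Ccl5, a T cell-attracting chemokine, gave 54 and 18 against 0, 5 and 0 (3.23 ± 0.91, edgeR adjusted p = 0.997).

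Of the 18 other class II pathway genes, 6 were tested, 3 had estimates above 0 and 3 below, and none was called, with a median log2 difference of -0.07 against 0.05 for all genes tested. March1 had the smallest unadjusted p of these, at 2.96 and 2.72 UMIs per 10000 in R241E mice 1 and 2 and 8.05, 7.34 and 7.45 in WT mice 1 to 3 (log2 difference -1.27 ± 0.51, edgeR adjusted p = 0.997). Its genotypes did not overlap over the 5 mice. Over the 4 mice of the fit, the genotypes did not overlap for 185 of the 667 genes (27.7%). The rule genes, given as description, had estimates below 0 for all 4 class II genes, for example -0.69 ± 0.69 for Cd74. Of 16 genes of the MHC class I pathway, 5 were tested and none was called. Cgas, which the mutation targets, gave 8 UMIs in 6 members, too few to compare, and a 3′ count does not read the mutated base.

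The interferon-stimulated genes, which cells switch on when type I interferon binds its receptor, are the readout that cGAS activity feeds through STING. The 28-gene list was taken from the study, which states that its gene sets came from earlier publications. In the members the list summed to 45.2 and 15.9 UMIs per 10000 in R241E mice 1 and 2 and to 70.5, 38.2 and 18.0 in WT mice 1 to 3. The highest library was a WT mouse. R241E mice averaged 30.5 ± 20.7 (SD, n = 2) and WT mice 42.2 ± 26.5 (SD, n = 3), a difference of -11.7 (exact two-sided permutation p = 0.6). The order rested on single nuclei, since the nucleus with the most list UMIs held 28.2% and 20.0% of its library's list UMIs in the R241E mice and 48.6%, 53.1% and 36.2% in the WT mice. In WT mouse 1 it was an Slc47a1-group nucleus with 68 of 140 UMIs, in WT mouse 2 a monocyte-group nucleus with 69 of 130, and in R241E mouse 1 a microglial-group nucleus with 73 of 259. Without WT mouse 1 the difference was 2.41, and without R241E mouse 2 it was 2.93.

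The microglia in the same libraries, taken as nuclei with at least 4 UMIs of the 4 microglial genes, had interferon levels of 31.8 and 27.0 UMIs per 10000 in R241E mice 1 and 2 and 4.42, 4.71 and 5.04 in the WT mice. Nuclei with at least 3 UMIs of Mrc1 and F13a1, the marker genes of border macrophages, held 28.3 and 30.9 against 19.1, 10.2 and 13.4. In both comparison sets the genotypes did not overlap (exact permutation p = 0.1 each, the smallest possible). The members of WT mice thus stood well above the microglia of the same mice in each of 3 libraries, while the members of R241E mice stood above the microglia in mouse 1 and below them in mouse 2. Among the members' groups, medians per nucleus were 53.2 list UMIs per 10000 in monocyte nuclei, 21.7 in dendritic nuclei and 9.33 in B cell nuclei. They were 42.9 in macrophage-group, 23.3 in microglial-group and 7.84 in Slc47a1-group nuclei.

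**Figure D4:**
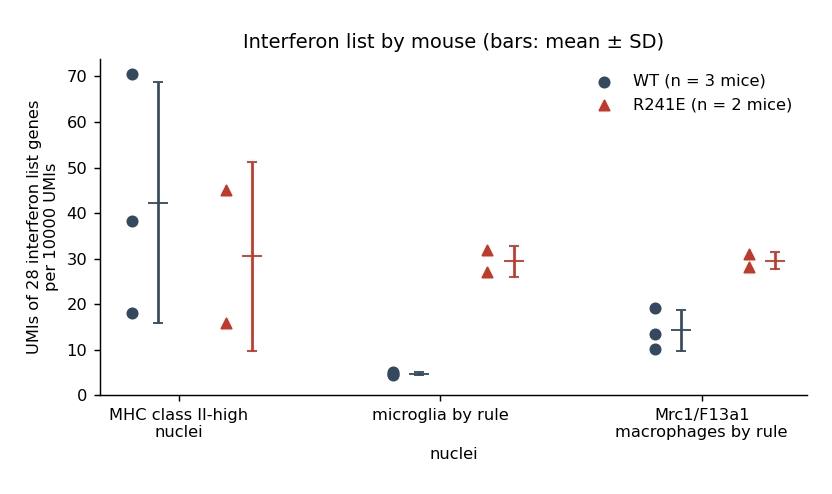
UMIs of the 28 interferon genes per 10000 UMIs are plotted by library for members, microglia and Mrc1/F13a1 macrophages. Microglia of R241E mice (31.8 and 27.0) lie apart from those of WT mice (4.42 to 5.04), while members range from 15.9 to 70.5 and the genotypes interleave.

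Whether the genotype effect differed between members and microglia was tested directly, as the class by genotype term of an edgeR quasi-likelihood fit with each library as a block, over all 5 libraries and with 70 members and 4855 microglia. Of 11364 genes, 47 were called, which is 0.414% of genes tested. In members the effect was higher for 6 (0.0528%) and lower for 41 (0.361%). The 41 include the rule gene Cd74 (-3.35), which helped choose the members and is not read as a result. The term's median over all genes was 0.24 log2 units, and values below are set against this. Of the 28 interferon genes, all 28 had a term below 0, with a median of -4.39, and 12 were called lower. The share of all genes called lower was 0.361%, but this list rose as a whole in microglia. A term below 0 therefore says only that the effect was smaller in members than in microglia. It does not tell a smaller rise from no change or a fall. In a fit of the members of all 5 mice, 6 list genes were tested, with 3 estimates above 0 and 3 below. The 12 were Ifi204, Oasl2, Usp18, Isg15, Zbp1, Sp100, Ifit3, Ifi27l2a, Ifi44, Irf7, Oas2 and Nlrc5. In the microglia fit itself, 570 of 13473 genes (4.23%) were called. All 28 list genes were called higher in R241E mice, against 2.79% of all genes, with a median log2 difference of 3.93.

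The levels behind several of these terms are given per mouse. Usp18, the protease that removes ISG15 and damps interferon signalling, was at 1.92 and 0 UMIs per 10000 in members of R241E mice 1 and 2 and at 3.02, 3.23 and 0.621 in WT mice 1 to 3, where the genotypes overlapped. In microglia it was at 1.81 and 1.36 against 0.0958, 0.0973 and 0.115, which did not overlap. The difference of the effects was -4.78 ± 0.83 (edgeR adjusted p = 1.06e-05). Oasl2, an oligoadenylate synthetase-like gene, was at 2.44 and 1.13 in members of R241E mice and 6.04, 0.881 and 0.931 in those of WT mice, against 1.57 and 1.18 and 0.0359, 0.0356 and 0.0249 in microglia of R241E and WT mice (difference -5.19 ± 0.83, edgeR adjusted p = 8.32e-07). Irf7, the transcription factor that amplifies interferon, was at 1.22 and 0.679 in members of R241E mice and 2.52, 2.64 and 1.55 in those of WT mice (difference -4.39 ± 0.98, edgeR adjusted p = 0.00273). Within the dendritic, monocyte and macrophage groups, Usp18 (edgeR adjusted p = 0.918) and Irf7 (edgeR adjusted p = 0.262) were not called, and Oasl2 was. Without nuclei holding B cell list UMIs, Usp18 (edgeR adjusted p = 0.232) and Irf7 (edgeR adjusted p = 0.0699) were again not called, and Oasl2 was. Isg15, a ubiquitin-like modifier, had 16 of its 41 member UMIs in 1 Slc47a1-group nucleus of WT mouse 1.

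Outside the list, Ifitm3, a membrane protein that blocks virus entry, had the smallest p. It was at 10.8 and 4.98 UMIs per 10000 in members of R241E mice and 23.7, 15.6 and 9.62 in those of WT mice, while microglia held 0.509 and 0.505 against 0.0439, 0.0261 and 0.0435 (difference -4.38 ± 0.60, edgeR adjusted p = 3.69e-09). In members 28 of the 31 UMIs of WT mouse 3 and 42 of the 53 of WT mouse 2 lay in 1 nucleus each, and within the dendritic, monocyte and macrophage groups the difference was not called (-3.59, edgeR adjusted p = 0.430). H2-D1, a class I heavy chain, was at 15.9 and 13.1 in members of R241E mice and 20.6, 23.2 and 13.3 in those of WT mice, against 5.60 and 5.33 and 0.359, 0.657 and 0.683 in microglia (difference -3.31 ± 0.55, edgeR adjusted p = 2.74e-06). In WT mice the class I gene was thus detected at over 10 UMIs per 10000 in members and at under 1 in microglia. Within the dendritic, monocyte and macrophage groups the H2-D1 difference was not called (-3.29, edgeR adjusted p = 0.673). Without nuclei holding B cell list UMIs it was called (-3.40, edgeR adjusted p = 0.00263). All 16 class I pathway genes had a term below 0 and 5 were called lower, again against 0.361% of all genes. In microglia all 16 had estimates above 0 and 12 were called higher, so these terms say only that the effect was smaller in members. In the genotype fit of members, 5 of the 16 were tested, 3 with estimates above 0 and 2 below. Class I heavy chains and the Ifi200 family (Ifi204, Ifi209, Ifi213) have near-identical copies, so that reads may be split among them and their single values are uncertain.

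Iigp1, an interferon-inducible GTPase, gave 12 and 2 UMIs in members of R241E mice and 21, 0 and 0 in those of WT mice, and its term of -7.30 ± 1.06 (edgeR adjusted p = 2.27e-08) turned to 3.32 without WT mouse 1. The remaining genes among the 10 with the smallest p were Samd9l (-4.70 ± 0.75), Cybb, the phagocyte oxidase subunit (-5.16 ± 0.87), Ifi209 (-4.32 ± 0.79) and Ifi213 (-5.14 ± 0.95). Ifi209 was not called within the dendritic, monocyte and macrophage groups (edgeR adjusted p = 0.734). Neither Ifi209 nor Ifi213 was called without nuclei holding B cell list UMIs, while Samd9l and Cybb were called in both sets. The 6 genes with a higher effect in members were Fcrls, Ighm, Gpc5, Magi1, Rgs7bp and Tbc1d4. Ighm rested largely on the antibody-rich nucleus of R241E mouse 2, and Gpc5 on 4 nuclei.

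**Figure D5:**
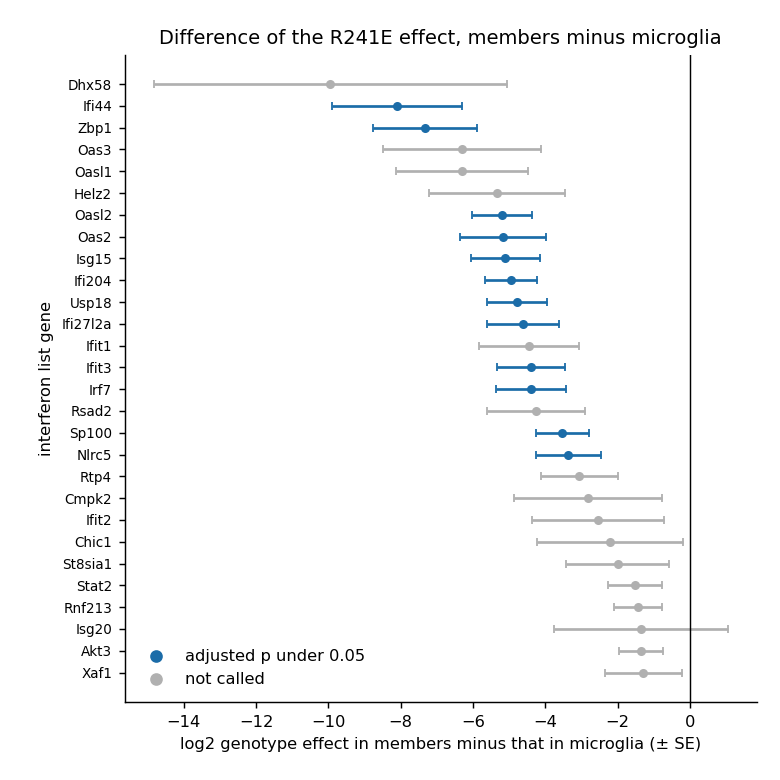
For each of the 28 interferon genes the difference of the genotype effect (members minus microglia, log2, with its standard error) is drawn, with called genes marked. All 28 lie below 0, the median is -4.39 and 12 are called.

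Restricted to the dendritic, monocyte and macrophage marker groups, 15 genes were called against microglia, 6 of them among 27 interferon genes tested, and without nuclei holding B cell list UMIs 21 were called, 5 of them in the list. The count of called genes also varied with the mice, from 16 without R241E mouse 1, 21 without WT mouse 2, 23 without R241E mouse 2 and 27 without WT mouse 1 to 67 without WT mouse 3. Nuclei of the members were taken from several marker groups in different proportions in each library, and the part of this make-up in the difference was not tested beyond these values.

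Against the 278 Mrc1/F13a1 macrophages, 1 of 2873 genes (0.0348%) had a different genotype effect and 69 had an unadjusted p under 0.05. The gene was Gpc5 (11.6 ± 1.38, edgeR adjusted p = 0.00349). It rested on 98 UMIs in 4 nuclei, with most UMIs in the member that the doublet score marked. Macrophages of both R241E mice and of WT mouse 1 held 0 UMIs of it, as did members of WT mice 1 and 2, so the fitted size is set by the prior count and is no bound, and it was not called without R241E mouse 1, without WT mouse 1, without WT mouse 3 or without nuclei holding B cell list UMIs. Of the interferon list, 15 genes were tested, all 15 had a term below 0 with a median of -1.33 against 0.18 for all genes, and none was called.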

How the data were processed

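Nuclei from 5 mice (2 R241E, 3 WT) were analysed from the deposited matrices of UMI counts per gene and barcode (32285 genes), which the authors made with Cell Ranger 7.0.0 on the 10x annotation of mm10. Whether intronic reads were counted is not given in the sources used here. No normalisation had been applied. Nuclei were kept with at least 200 and fewer than 4500 genes, a total below 10000 UMIs and a mitochondrial share below 5%. The members and gene lists were chosen with earlier results of these data known. Marker groups and the alternatives that leave them out were added after seeing the data. Genes named in the text came from the lists, from up to 12 called genes in each direction (none here) and from the 10 smallest p in each interaction test. They also came from the 20 genes with the highest ratio in members, with at least 50 UMIs there and higher in members in every library. The interferon list was given by the study, from earlier publications.

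Counts were summed per mouse and set of nuclei and tested with edgeR 4.0.16 (TMM, filterByExpr, quasi-likelihood, adjusted p under 0.05, R 4.3.3). A mouse with fewer than 10 members was left out of the genotype fit. The study tested nuclei as replicates, whereas mice were the replicates here. The interaction fits held library, class and class by genotype. Single values were compared by exact two-sided permutation over mice (scipy 1.17.1). DESeq2 1.42.0 and limma 3.58.1 were alternatives. Doublets were scored with Scrublet in scanpy 1.11.5 and were left in. The edgeR tests were tested on simulated data. Promoter sequences came from RefSeq (GRCm38.p6).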

Additional observations from a re-analysis of the deposited data

Results flagged for a closer look

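The genotype effect differed between members and microglia for 47 genes, and between members and Mrc1/F13a1 macrophages for 1 gene, in edgeR tests of the difference itself. The 47 include the rule gene Cd74, which helped choose the members. Differences below are log2 values, members minus microglia. Among the 10 genes with the smallest p these were -4.38 for Ifitm3, -4.95 for Ifi204, -7.30 for Iigp1, -4.70 for Samd9l, -5.19 for Oasl2, -3.31 for H2-D1, -5.16 for Cybb, -4.78 for Usp18, -4.32 for Ifi209 and -5.14 for Ifi213. The further called interferon list genes were Isg15 at -5.10, Zbp1 at -7.33, Sp100 at -3.52, Ifit3 at -4.40, Ifi27l2a at -4.61, Ifi44 at -8.10, Irf7 at -4.39, Oas2 at -5.17 and Nlrc5 at -3.36. Ifi44 had no UMI in the microglia of any WT mouse, so its fitted value is set by the prior count and is no bound. Against the macrophages the gene was Gpc5 at 11.6, with 98 member UMIs in 4 nuclei, a size likewise set by the prior count.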

How the results depend on the processing

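The count of genes called between genotypes in members was 0 and became 7 without a filter on low counts, 2 with DESeq2, and 1 with all 5 mice and no B cell list nuclei. It ranged from 1 to 18 as mice were left out, and the cause was not tested. No paired analysis was possible on the 4 mice of the fit, which left no residual degrees of freedom. With the mouse number as a replicate block and all 5 mice, 17 genes were called, but only 2 numbers are shared, the mice differ, and same-number deviations correlated at 0.317 and -0.0599. The B cell and myeloid-only settings could not be fitted with the 10-member minimum. The interferon list's median log2 difference in members was -0.15, taken over only the 3 list genes tested in that fit. As mice were left out it ranged from -0.74 without R241E mouse 1 (2 genes tested) to 1.78 without WT mouse 2 (7 genes tested). Without R241E mouse 2 it rested on 7 genes, and without WT mouse 3 on 11. The range therefore does not follow a fixed set of genes and is not variation between mice alone. The list's summed level difference, -11.7 UMIs per 10000, ranged from -26.4 to 2.93, and was 2.41 without WT mouse 1. The difference in the share of kept nuclei, 0.355 percentage points, ranged from 0.00405 to 0.706.

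Differences in marker class shares (percentage points) ranged from -7.89 to 16.6 for dendritic, -3.92 to 3.33 for plasmacytoid, -12.4 to -4.54 for monocyte, -4.14 to 3.01 for macrophage and -8.37 to 15.2 for B cell nuclei as mice were left out. Thinned, the dendritic value was -0.43 and the macrophage value -4.22, and with at least 3 UMIs the plasmacytoid value was 1.37, each of the opposite sign. Against microglia 47 genes became 15 in the dendritic, monocyte and macrophage groups and 21 without B cell list nuclei, and ranged from 16 to 67 as mice were left out. Against macrophages 1 gene became 0 in both of these sets and ranged from 0 to 4. Iigp1, at -7.30, ranged from -8.98 to 3.32 as mice were left out, the latter without WT mouse 1, and was -17.6 in the dendritic, monocyte and macrophage groups and -10.4 without B cell list nuclei. Of 199 further values for single genes, 142 kept their call, 56 kept their direction but not the call, and 1 (Iigp1) reversed.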

Other observations

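The 18 chemokine genes gave 263 UMIs in 39 members and the 7 cell-cycle genes 30 UMIs in 4. Cxcl10, an interferon-induced T cell attractant, gave 21 UMIs in 2 nuclei, 11 of them in the Slc47a1-group nucleus of WT mouse 1 that also held the most interferon list UMIs there. Ccl4 gave 17 UMIs in 2 nuclei, with 14 in 1 microglial-group nucleus of R241E mouse 1. Ifnb1, the interferon beta gene, gave 3 UMIs in 1 nucleus of the same mouse and group. Cxcl16, a membrane-bound chemokine, was more widely spread, with 30 UMIs in 14 nuclei. Top2a, a topoisomerase of dividing cells, gave 15 UMIs, of which 14 lay in 1 B cell-group nucleus of R241E mouse 1. The nucleus of R241E mouse 2 with 1327 Igkc UMIs and 165 of Jchain was the only member with Jchain. These genes were singled out after their values were seen and were not tested.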
